A study of Mus musculus with 18 samples.

Results

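The effect of a Hypericum perforatum (St John's wort) sub-fraction was examined in mouse macrophages that were stimulated with bacterial lipopolysaccharide (LPS). The 6 arrays concerned, of 18 in the series, were chosen by their sample titles: 3 of cells given the sub-fraction (here "the fraction") plus LPS and 3 of cells given solvent plus LPS. RAW 264.7 is a single macrophage-like mouse cell line, so the arrays describe that line and no other macrophage. Cells of the fraction plus LPS group received 10 ug/mL of the fraction and 10 ug/mL of LPS for 8 h. Cells of the vehicle plus LPS group received 0.1% DMSO and the same LPS. The labels state DMSO for vehicle arrays only, so whether the compared groups also differed in solvent is not known, and an effect of DMSO cannot be told apart from that of the fraction. All treatments were added in the dark and were followed by 30 min of ambient light before the plates went back to the incubator. The labels do not give the composition of the fraction. Cells without LPS (3 arrays of the fraction, 3 of vehicle) and cells given LPS with a 4-compound mixture (3 arrays) enter only where a difference between effects is at issue. That mixture held amentoflavone at 0.07 uM, quercetin at 0.08 uM, chlorogenic acid at 0.2 uM and pseudohypericin at 0.03 uM.

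The arrays report a signal per probe set on a linear scale in which every array was scaled to the same trimmed mean. Array medians lay between 52.1 and 66.8, and a signal under its array's median is treated here as too dim to give a fold. Where only the dimmer group lay under its medians, the fold against those medians is given as "at least". A difference is the mean log2 signal of fraction plus LPS minus that of vehicle plus LPS, given ± its standard error with n = 3 arrays per group. A gene described as "at" a value has that log2 difference. A gene is called where its p, adjusted over 11547 tested genes, is under 0.05. Nothing in the labels tells whether a group's arrays are of separately grown cells. So p rests on the spread between arrays within the groups of the series, which may be technical. An array also cannot tell fewer cells that express a gene from less of its RNA per cell.

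LPS is recognised by Toll-like receptor 4, which switches on NF-kB and interferon programmes and makes macrophages secrete cytokines. Several stress sensors block general translation through phosphorylation of eIF2alpha, which lets the transcription factor ATF4 be made. ATF4 and its target CHOP then turn on genes for amino acid supply, tRNA charging and growth arrest, and this is called the integrated stress response. Sterol supply is governed by SREBP factors, which turn on the genes of cholesterol and fatty acid synthesis when membrane sterols run low.

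With the fraction, LPS-stimulated cells had more RNA of ATF4 and CHOP targets, of tRNA synthetases and amino acid transporters, and of several secreted cytokines. They had less RNA of the genes of cholesterol synthesis, mitosis and DNA replication and of some interferon-induced genes, several but not all GTPases among them. Of the 11547 genes, 1281 (11.1%) were called higher and 1465 (12.7%) lower, and 244 and 147 of these differed by at least 2-fold. The median difference over all genes was -0.02. Without regard to any test, all 3 fraction arrays lay above all 3 vehicle arrays for 17.4% of genes and below them for 18.7%. Correlations within a group lay between 0.971 and 0.979 and those across the groups between 0.955 and 0.967.

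**Figure D1:**
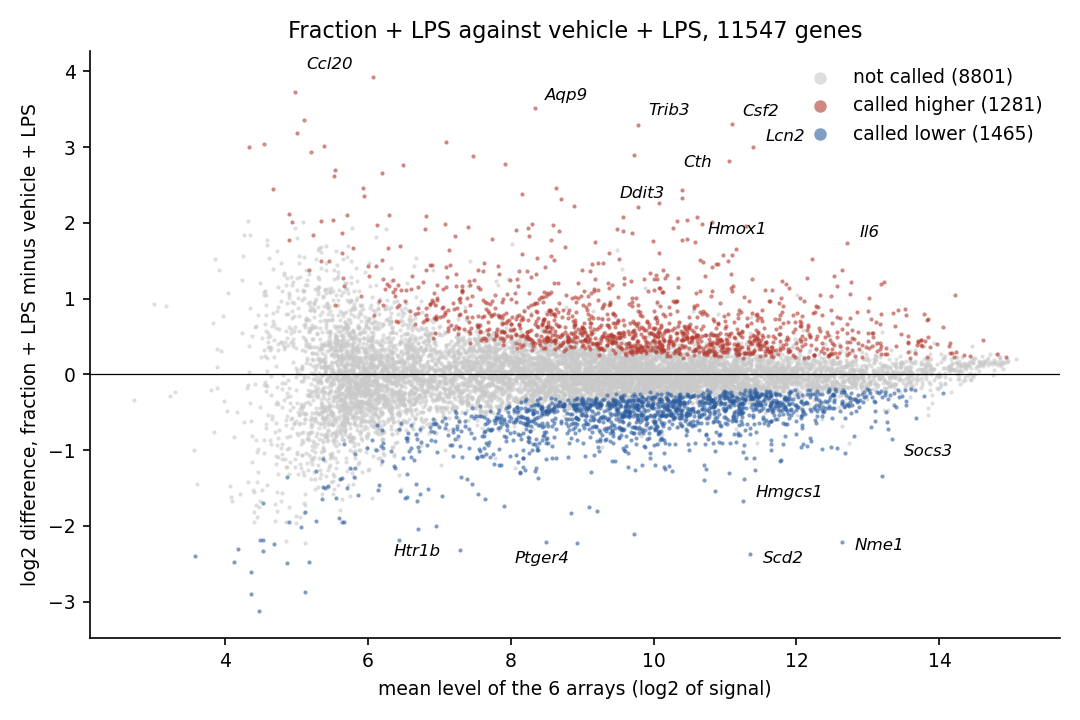
Each point is 1 of 11547 genes; the x axis is the mean log2 signal over the 6 arrays and the y axis the log2 difference of fraction plus LPS minus vehicle plus LPS. Red points (1281) were called higher and blue points (1465) lower; Aqp9, Trib3 and Csf2 lie above 3 and Scd2, Htr1b and Ptger4 under -2.

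Replicate 1 of vehicle plus LPS stood apart from its group. It had a score of -34.3 on the second principal component, which held 19.3% of the variance, against 20.1 and 15.5 for replicates 2 and 3. Left out, 1225 genes were higher and 1190 lower. For some results that lean on it, but not for all, values with and without it are given below. Without it Sesn2 was at 1.10, Ddit4 at 1.11, Chac1 at 1.15, Ptger2 at 1.58 and Fcgr2b at 1.57, smaller but still called. Other differences grew in size, such as Hmgcs1 at -1.80 and Pfkfb3 at -2.45. The macrophage markers Spi1, Csf1r, Cd68, Tyrobp and Lyz2 were bright in both groups, with group means of all 10 listed markers from 597 to 28450. Of 32 markers of other cell types 8 were measured and 0 were called. Their summed signal was 586 to 770.4 in vehicle plus LPS and 496 to 687 in fraction plus LPS.

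Promoter sequences of 6 genes of the groups described below are shown so that the letters around a known response element can be read. They are the 250 bases before the RefSeq start of each gene (build GRCm38.p6), 5′ to 3′ on the gene's strand, and capitals mark the motif.
Slc7a11 (cystine transporter), chr3:50443614-50443863, minus strand, C/EBP-ATF element: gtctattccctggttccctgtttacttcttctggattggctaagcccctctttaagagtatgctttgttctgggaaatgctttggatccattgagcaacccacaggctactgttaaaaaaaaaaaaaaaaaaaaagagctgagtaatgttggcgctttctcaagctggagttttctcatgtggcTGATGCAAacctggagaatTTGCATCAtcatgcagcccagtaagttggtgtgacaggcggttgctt
Asns (asparagine synthetase), chr6:7693210-7693459, minus strand, C/EBP-ATF element: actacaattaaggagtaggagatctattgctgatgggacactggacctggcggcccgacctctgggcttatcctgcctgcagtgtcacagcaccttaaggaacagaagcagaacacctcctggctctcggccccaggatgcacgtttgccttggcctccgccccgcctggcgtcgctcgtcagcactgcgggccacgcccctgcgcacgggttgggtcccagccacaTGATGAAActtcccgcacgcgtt
Gars (glycyl-tRNA synthetase), chr6:55037751-55038000, plus strand, C/EBP-ATF element: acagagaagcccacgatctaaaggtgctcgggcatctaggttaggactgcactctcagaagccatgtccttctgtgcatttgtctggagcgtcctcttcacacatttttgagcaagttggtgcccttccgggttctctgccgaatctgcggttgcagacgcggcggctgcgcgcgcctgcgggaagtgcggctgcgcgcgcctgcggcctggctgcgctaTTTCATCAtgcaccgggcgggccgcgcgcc
Hmgcs1 (HMG-CoA synthase), chr13:119690101-119690350, plus strand, sterol response element: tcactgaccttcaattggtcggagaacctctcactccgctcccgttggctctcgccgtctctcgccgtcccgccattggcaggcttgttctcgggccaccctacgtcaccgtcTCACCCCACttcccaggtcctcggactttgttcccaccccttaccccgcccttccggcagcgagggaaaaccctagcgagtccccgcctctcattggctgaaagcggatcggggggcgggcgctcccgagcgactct
Igtp (interferon-induced GTPase), chr11:58199306-58199555, plus strand, interferon response element: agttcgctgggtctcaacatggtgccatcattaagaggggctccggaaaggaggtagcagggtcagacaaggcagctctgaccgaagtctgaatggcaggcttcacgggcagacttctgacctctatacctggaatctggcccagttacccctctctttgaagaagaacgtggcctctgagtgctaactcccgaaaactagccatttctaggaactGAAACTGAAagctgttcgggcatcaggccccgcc
Kif22 (mitotic kinesin), chr7:127042421-127042670, minus strand, cell cycle homology region: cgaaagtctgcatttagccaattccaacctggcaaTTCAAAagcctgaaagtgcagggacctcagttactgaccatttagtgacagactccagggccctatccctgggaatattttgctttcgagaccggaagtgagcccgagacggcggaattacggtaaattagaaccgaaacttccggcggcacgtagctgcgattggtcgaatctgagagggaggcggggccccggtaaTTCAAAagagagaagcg

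Letters were searched on both strands in windows from 250 bases before to 50 after the start of 27025 genes (32851 windows). The 5 motifs were TGATGNAA (C/EBP-ATF), TCACNCCAC (sterol), TGACNNNGC (antioxidant), GAAANNGAA (interferon) and TTTGAA (cell cycle). TGATGNAA stood in 6 of 25 windows of the ATF4 and CHOP list, 5 of 12 of the tRNA synthetases and 6 of 33 of the amino acid list, against 3.97% of all windows. Windows of Slc7a11 and Asns belong to both the ATF4 and the amino acid list. GAAANNGAA stood in 18 of 38 interferon windows against 8.56% of all, and TTTGAA in 21 of 28 mitosis windows against 17.9%. TGACNNNGC stood in 8 of 31 NRF2 windows against 12.4%, and TCACNCCAC in 1 of 25 cholesterol windows (Hmgcs1) against 1.24%. TGACNNNGC was not particular to the NRF2 list. It stood in 10 of 33 amino acid windows, 7 of 25 ATF4 and CHOP windows and 6 of 22 ER chaperone windows. These matches describe letters and show no binding.

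Targets of ATF4 and CHOP rose as a block. Of 26 measured members 23 rose and 0 fell, with a median difference of 1.18. Trib3, a pseudokinase that CHOP and ATF4 induce and that restrains AKT, gave signals of 222, 371 and 273 in the 3 vehicle arrays and 2631, 2816 and 2829.7 in the 3 fraction arrays. The groups lay far apart, and Trib3 was 9.78-fold higher (3.29 ± 0.16, adjusted p = 1.3e-10). Ddit3, the gene of CHOP itself, stood at 410.5, 901 and 588 with vehicle and 3076, 2875 and 3088 with the fraction. It was 5.01-fold higher (2.32 ± 0.23, adjusted p = 5.1e-07), and its vehicle arrays varied more than its fraction arrays. Atf4 was already bright, at 8306, 9604 and 8341, and rose to 15850.2, 15449 and 16480.3 (0.87 ± 0.086).

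Around these factors, genes of stress feedback and growth control rose as well. Gadd45a, a brake on the cell cycle, was 7.46-fold higher, from 316, 351 and 268 to 2779, 1905 and 2329 (2.90 ± 0.27, adjusted p = 2.3e-07). Sesn2 and Ddit4, inhibitors of the growth kinase mTORC1, were at 1.51 ± 0.27 and 1.45 ± 0.25, and Eif4ebp1, which blocks cap-dependent translation, at 1.38 ± 0.10. Ppp1r15a, which brings the phosphatase to eIF2alpha and so ends the response, was at 1.09 ± 0.18. The partner factors Cebpg and Atf5 were at 1.60 ± 0.11 and 1.26 ± 0.13, and Atf3, an ATF factor counted here among feedback genes, at 1.46 ± 0.24. Chac1, an enzyme that degrades glutathione, was at 1.51 ± 0.22, and Ndrg1, a stress and hypoxia gene, at 2.43 ± 0.30. The 3 members that were not called were Cebpb (0.38 ± 0.15, adjusted p = 0.064), Cbs (-0.47 ± 0.34) and Tnfrsf10b (0.08 ± 0.34). The probe sets of Trib3, Eif4ebp1, Gpt2 and Ndrg1 are of kinds that can also bind related transcripts.

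Genes that charge tRNAs with amino acids rose in 13 of 19 cases, and 0 fell, with a median difference of 0.74. Sars (serine) gave 5468, 6846 and 6682 with vehicle and 14576, 14115 and 15293 with the fraction (1.22 ± 0.096, adjusted p = 3.5e-08). Cars (cysteine) and Aars (alanine) were at 1.17 ± 0.085 and 1.14 ± 0.091, Wars (tryptophan) at 0.85 ± 0.099 and Gars (glycine) at 0.84 ± 0.060. Gars arrays lay between 6105 and 6187 with vehicle and between 10674 and 11336 with the fraction, a narrow spread within each group. The 6 members not called included Kars (lysine, 0.06 ± 0.067), which stood at 4225, 4295 and 4156 and 4189, 4614 and 4429, and Farsa (phenylalanine, -0.24 ± 0.10, adjusted p = 0.11).

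Amino acid uptake and synthesis moved in the same direction, with 21 of 30 members higher, 1 lower and a median of 0.85. Cth, Gpt2, Asns, Slc3a2 and Slc7a11 are also in the ATF4 and CHOP list, so the counts of these lists share genes. Cth, which makes cysteine from cystathionine, stood at 653, 892 and 876 with vehicle and 5927, 5236 and 5765 with the fraction, 7.05-fold higher (2.82 ± 0.14, adjusted p = 1.3e-10). Gpt2, which makes alanine in mitochondria, went from 335, 407 and 373 to 1392, 1769 and 1555 (2.08 ± 0.11), and all 4 of its probe sets were called higher. Among transporters, Slc1a4 (alanine and serine) was at 1.98 ± 0.18, Slc7a7 (cationic amino acids) at 1.79 ± 0.27, Slc6a9 (glycine) at 1.52 ± 0.12 and Slc7a1 (arginine and lysine) at 1.16 ± 0.081. Slc7a11, whose promoter holds the paired elements shown above, rose from 1657, 1594 and 1290.1 to 3414, 3131 and 3135 (1.100 ± 0.11). Slc3a2, the heavy chain that Slc7a11 and Slc7a5 share, was at 1.01 ± 0.070 and Slc7a5 at 1.03 ± 0.089.

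In the serine and one-carbon branch, Phgdh and Psph, enzymes of serine synthesis, were at 0.82 ± 0.089 and 1.05 ± 0.084. The mitochondrial folate enzymes Mthfd2 and Aldh1l2 were at 1.30 ± 0.086 and 1.94 ± 0.12. Asns rose from 7851, 8229 and 8450.4 to 15139.6, 14388 and 14802 (0.85 ± 0.072), Aldh18a1, the first enzyme of proline synthesis, was at 1.27 ± 0.077, and Pck2, a mitochondrial enzyme that ATF4 induces, at 2.03 ± 0.12. The member that fell was the light chain gene Slc7a6 (-0.27 ± 0.084, adjusted p = 0.024), whose adjusted p reached 0.15 over the alternatives.

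The chaperones of the endoplasmic reticulum did not follow. Of 26 ER chaperones and XBP1 targets 3 rose and 5 fell, beside 11.1% and 12.7% of all genes, and the median was -0.08. Hspa5, the chaperone BiP, stood at 24447, 24486 and 23014 and 28646, 23951 and 29212 (0.18 ± 0.091, adjusted p = 0.17). The members that rose were the sensor gene Ern1 (1.08 ± 0.14), the degradation adaptor Sel1l (0.81 ± 0.097) and the sensor gene Atf6 (0.68 ± 0.13). The ER-resident proteins Sdf2l1 (-0.50 ± 0.12), Dnajc3 (-0.38 ± 0.089), Creld2 (-0.33 ± 0.092), Manf (-0.30 ± 0.091) and Dnajb11 (-0.29 ± 0.094) fell. After median centring 2 of the 5, Sdf2l1 and Dnajc3, were still called. Creld2, Manf and Dnajb11 each also lost the call when certain single arrays were left out. Among cytosolic heat shock proteins 3 of 20 rose and 5 fell, with Hspa1b, which has a near-identical copy in Hspa1a, at -0.92 ± 0.17 and its co-chaperone Bag3 at -0.71 ± 0.12.

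**Figure D2:**
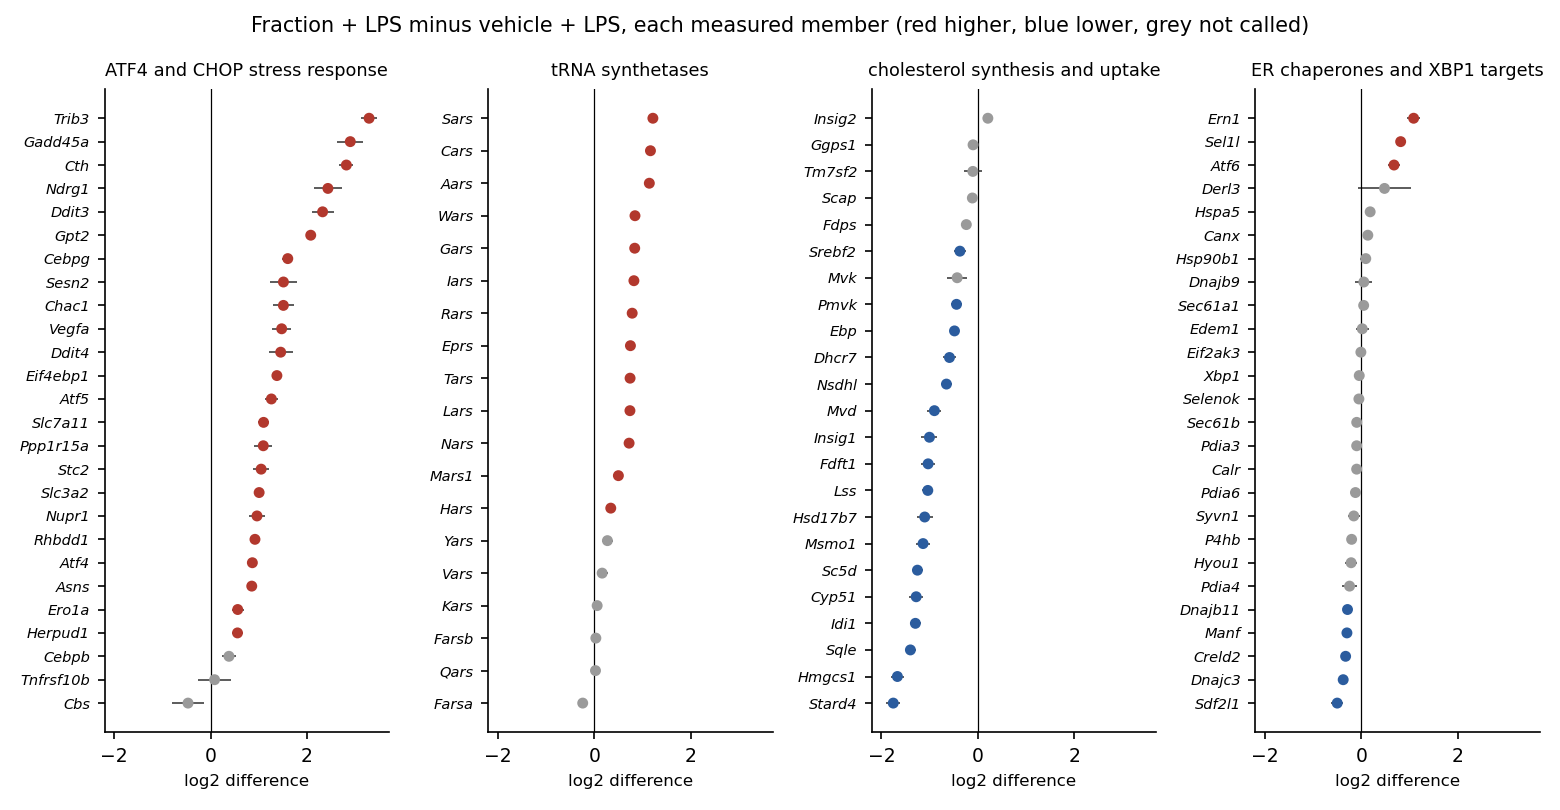
Each point is a measured member of a list, placed by its log2 difference (fraction plus LPS minus vehicle plus LPS) with a bar of 1 standard error; red was called higher, blue lower and grey not called. In the ATF4 and CHOP list 23 of 26 points are red, in the tRNA synthetases 13 of 19, in cholesterol synthesis 17 of 23 are blue, and in the ER chaperone list 18 of 26 are grey.

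Cholesterol synthesis fell along most of its length, in 17 of 23 measured members with 0 higher and a median of -0.90. Hmgcs1, which makes HMG-CoA at the start of the pathway, gave 3615, 5226 and 4348 with vehicle and 1271, 1482 and 1354 with the fraction, 3.18-fold lower (-1.67 ± 0.13, adjusted p = 3.5e-08). All 5 of its probe sets were called lower. In the isoprenoid steps Mvd was at -0.90 ± 0.15 and Idi1 at -1.30 ± 0.11, while Fdps stood at -0.24 ± 0.11 (adjusted p = 0.12). From squalene on, Fdft1 was at -1.03 ± 0.15, Sqle at -1.40 ± 0.12, Lss at -1.04 ± 0.11, Cyp51 at -1.28 ± 0.14, Msmo1 at -1.14 ± 0.14, Hsd17b7 at -1.10 ± 0.17, Sc5d at -1.25 ± 0.11 and Dhcr7 at -0.59 ± 0.14. Stard4, a carrier that moves sterols between membranes, fell from 962, 1190.4 and 894 to 276, 314 and 307 (-1.76 ± 0.14), and the sterol sensor partner Insig1 from 909, 1264 and 1141 to 479, 620.4 and 546 (-1.004 ± 0.17). For both genes every fraction array lay under every vehicle array.

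Fatty acid synthesis fell in 8 of 19 members and rose in 1, beside 12.7% and 11.1% of all genes. Scd2, a desaturase that makes monounsaturated fatty acids, had the largest fall of any called gene above the array median in both groups. Its signals were 5437, 6049 and 6387 with vehicle and 941, 1342 and 1195 with the fraction, 5.18-fold lower (-2.37 ± 0.22, adjusted p = 2.7e-07). Elovl6, which elongates palmitate, was at -1.30 ± 0.14, Aacs, which feeds ketone bodies into lipid synthesis, at -0.94 ± 0.17, and Fads2, another desaturase, at -0.65 ± 0.14. Acly and Fasn, which make acetyl-CoA and palmitate, were at -0.65 ± 0.064 and -0.64 ± 0.087. The member that rose, Mid1ip1, an activator of acetyl-CoA carboxylase, was at 0.75 ± 0.15.

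Of 21 LXR and PPAR genes of lipid handling 4 rose and 3 fell, near the 11.1% and 12.7% of all genes. Plin2, a coat protein of lipid droplets, rose from 833, 1809 and 1312 to 3339, 4355 and 3015 (1.49 ± 0.23), and the fatty acid carrier Fabp4 was at 0.95 ± 0.23. Angptl4, a PPAR target and lipase inhibitor, lay under the array medians with vehicle (56.4, 9.5 and 21.6) and was at least 1.53-fold higher with the fraction (96.2, 90.5 and 92, adjusted p = 0.010, 0.072 without replicate 2 of vehicle plus LPS). The cholesterol exporter Abca1 was called lower (-0.86 ± 0.27, adjusted p = 0.025), but its arrays overlapped, at 349.7, 966 and 834 and 452, 293 and 354. Without replicate 1 of vehicle plus LPS it was at -1.32, and without replicate 2 at -0.58 (adjusted p = 0.15). It was also not called without replicate 3 of that group or replicate 2 or 3 of fraction plus LPS.

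A group of secreted cytokines was higher with the fraction. Of 26 interleukins and growth factors 8 rose and 0 fell, beside 11.1% and 12.7% of all genes, with a median of 0.39. Csf2 encodes GM-CSF, a growth factor of myeloid cells, and gave 345, 1089 and 904 with vehicle and 7722, 6659 and 6381 with the fraction. It was 9.89-fold higher (3.31 ± 0.51, adjusted p = 9.6e-05), and at 2.80 (adjusted p = 0.00084) without replicate 1 of vehicle plus LPS, whose signal was the lowest. In the mixture plus LPS arrays Csf2 stood at 329, 418 and 305, near that replicate. Il23a, a subunit of interleukin 23, which sustains Th17 cells, rose from 283, 229 and 163 to 988, 1017 and 1073 (2.22 ± 0.37). Ebi3, a subunit of interleukin 27, was at 0.72 ± 0.16.

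In the interleukin 6 family, Il6 stood at 1654, 5657 and 5241 with vehicle and 11859, 13867 and 11016 with the fraction (1.74 ± 0.56, adjusted p = 0.030). All fraction arrays lay above all vehicle arrays, but without replicate 1 of vehicle plus LPS the difference was 1.16 (adjusted p = 0.17). Leaving out replicate 1, 2 or 3 of fraction plus LPS gave 0.066, 0.077 and 0.062 as adjusted p. Lif, a relative of interleukin 6, went from 3157, 5321 and 5640.3 to 11255, 10729.5 and 9897 (1.22 ± 0.22), and Osm, another, was at 0.90 ± 0.21 and at 0.61 without replicate 1 of vehicle plus LPS. The angiogenic factor Vegfa rose from 247, 439 and 421 to 1005, 1041 and 936 (1.47 ± 0.19), and the T cell costimulator Tnfsf9 was at 0.81 ± 0.14.

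Tnf and Il1b, main cytokines of the LPS response, did not pass the test. Tnf stood at 20311, 20097 and 19076 and 27615, 23169.9 and 26182, so that its groups did not overlap, at 0.37 ± 0.13 (adjusted p = 0.054, between 0.0084 and 0.17 over the alternatives). Il1b stood at 11896, 14611 and 12688 and 12138, 13238 and 12088 (-0.06 ± 0.21, adjusted p = 0.87), and its arrays were intermingled.

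Of 19 chemokines 2 rose and 0 fell, beside 11.1% and 12.7% of all genes. Ccl20, a chemokine for CCR6-bearing cells, lay under the array medians with vehicle (13.1, 10.2 and 38.7) and was at least 4.31-fold higher with the fraction (185, 293 and 329, adjusted p = 0.0068). Cxcl3, which attracts neutrophils, lay near or under the medians with vehicle (65.7, 57.2 and 50) and was at least 3.56-fold higher (344, 199 and 147, adjusted p = 0.0096). Neither was called without the 6 arrays numbered 1 (adjusted p = 0.064 and 0.11), and Cxcl3 also not without replicate 1 of fraction plus LPS (0.076). Cxcl10, an interferon-type chemokine, stood at 14714, 18837 and 17894 and 10074, 16662 and 11668 (-0.45 ± 0.18, adjusted p = 0.083).

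**Figure D3:**
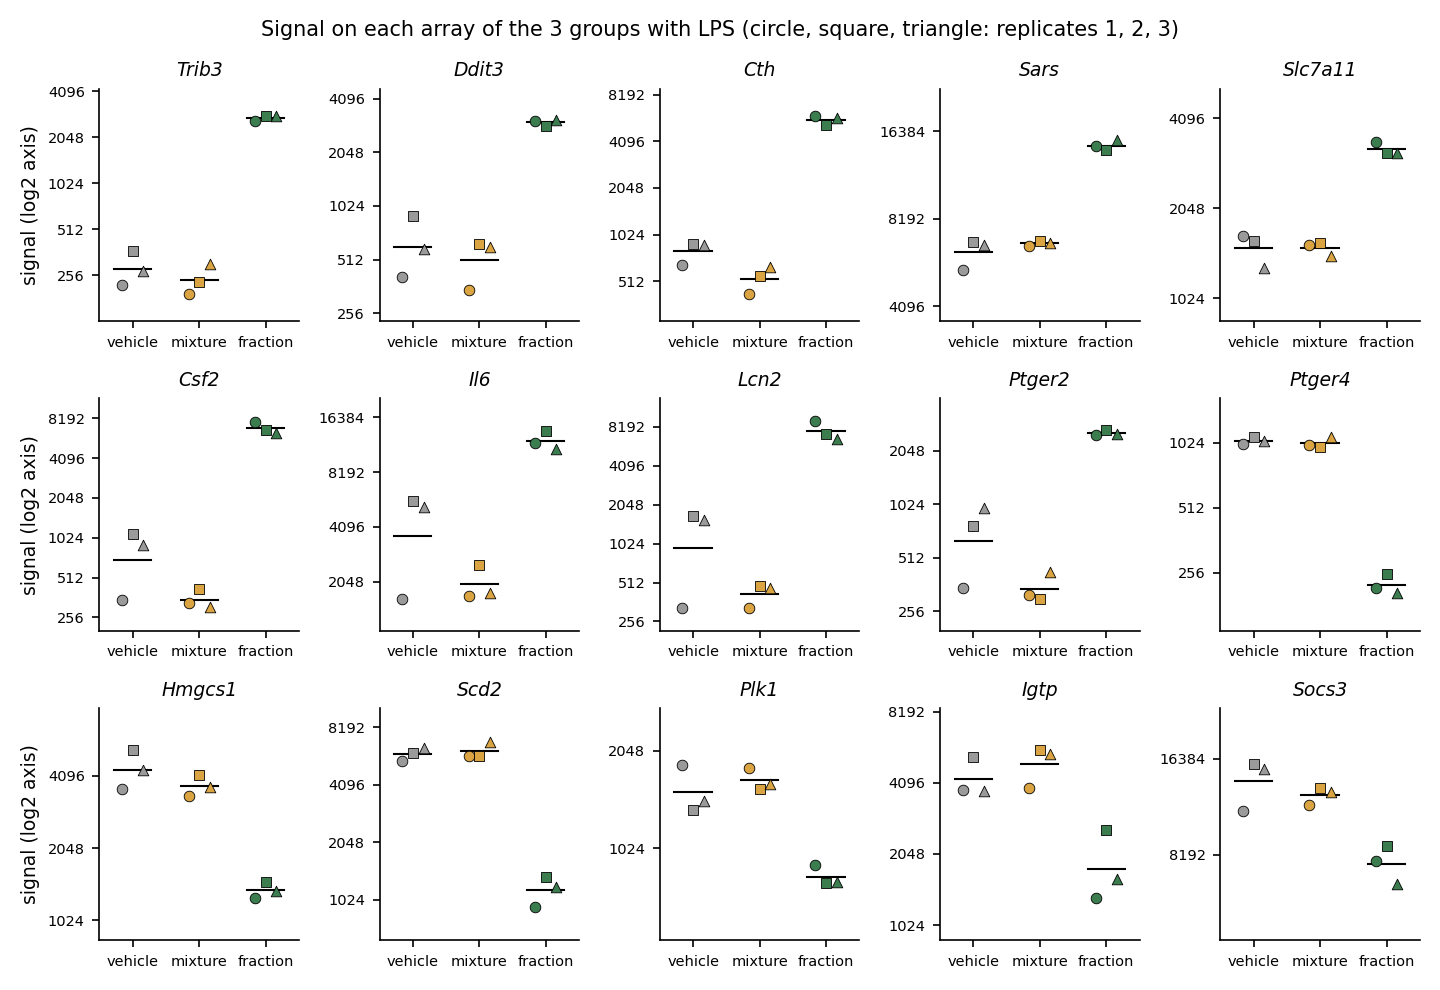
Each symbol is the signal of 1 array on a log2 axis, for 15 genes in the 3 groups with LPS (vehicle, mixture, fraction; n = 3 each), and each bar is the geometric mean of a group. The fraction arrays lie apart from the vehicle arrays for all 15 genes. Replicate 1 of vehicle plus LPS (grey circle) is the lowest vehicle array for all of them except Slc7a11, Plk1 and Igtp.

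Prostaglandin receptors moved in opposite directions. Ptger2 and Ptger4 encode the prostaglandin E2 receptors EP2 and EP4, which both raise cyclic AMP. Ptger2 rose from 344, 774 and 971 to 2507, 2693 and 2558 (2.02 ± 0.31, adjusted p = 9.4e-05), while Ptger4 fell from 1007, 1095 and 1048 to 219, 253 and 207 (-2.22 ± 0.13, adjusted p = 1.2e-09). Ptger4 arrays were tight in both groups, and both of its probe sets were called lower. Ptgir, the prostacyclin receptor, was at 1.43 ± 0.36, with an adjusted p of 0.0065, and 0.053 without the 6 arrays numbered 1. The inducible cyclooxygenase gene Ptgs2, which makes the precursor of these ligands, stood at 19505, 23594 and 25578 and 27906, 25256 and 27592 (0.24 ± 0.17, adjusted p = 0.35). The prostaglandin D synthase gene Hpgds was at 0.76 ± 0.19.

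On the nitric oxide side, Gch1, the first enzyme of the cofactor tetrahydrobiopterin, rose from 2957, 4742 and 4519 to 6736, 7458 and 6416 (0.78 ± 0.13). Nos2, the inducible nitric oxide synthase, varied widely, at 261, 719.6 and 463 and 412, 608 and 334 (-0.02 ± 0.56, adjusted p = 0.99). In the whole list 6 of 21 genes rose and 1 fell, and without the 6 arrays numbered 1 the counts were 3 and 1. Over all genes 11.1% rose and 12.7% fell.

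Of 30 feedback inhibitors of inflammatory signalling 4 rose and 4 fell, shares near the 11.1% and 12.7% of all genes, so only single members are described. Socs3, which blocks signalling of interleukin 6 receptors, gave 11232, 15741 and 15233 and 7825, 8704 and 6628 (-0.86 ± 0.24, adjusted p = 0.012). It was not called without replicate 2 of vehicle plus LPS or replicate 3 of fraction plus LPS (adjusted p = 0.0501 and 0.0593). Dusp2, a MAP kinase phosphatase, fell from 4696, 5865 and 5628 to 2863, 3711 and 2851 (-0.79 ± 0.18). Bcl3, a nuclear IkB protein, was at -1.20 ± 0.26 and at -1.67 without replicate 1 of vehicle plus LPS, whose signal of 816 lay among the fraction arrays (638, 877 and 586). Dusp1, a phosphatase of p38 and JNK, was at -1.25 ± 0.38 (adjusted p = 0.019) and at -1.93 without replicate 1, but at -0.81 without replicate 2 (adjusted p = 0.13) or -1.03 without replicate 3 (0.088). Without replicate 1 or 3 of fraction plus LPS its adjusted p was 0.053 or 0.066. Nfkbiz, an IkB protein needed for Il6 transcription in mice, rose from 10835, 14297 and 16717 to 19814, 22828 and 20727 (0.62 ± 0.15).

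Among Toll-like receptor and NF-kB components 6 of 27 rose and 3 fell, beside 11.1% and 12.7% of all genes. The share that fell was near that of all genes. Nfkb2 and Relb, the subunits of the non-canonical NF-kB dimer, were at 0.87 ± 0.12 and 0.68 ± 0.18, and the kinase gene Ikbke at 0.82 ± 0.17. Tlr4, the LPS receptor itself, rose from 555, 634 and 652 to 1023, 757 and 915 (0.54 ± 0.11, adjusted p = 0.0012, 0.072 without the 6 arrays numbered 1). The members that fell were the kinase gene Map3k8 (TPL2, -1.30 ± 0.17), which links LPS to ERK, the double-stranded RNA receptor Tlr3 (-1.23 ± 0.27) and the adaptor Myd88 (-0.53 ± 0.12).

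Interferon-induced genes were lower where they differed, in 10 of 41 members with 0 higher and a median of -0.45. Over all genes 12.7% were lower and 11.1% higher. The other 31 members were not called. Several immunity-related GTPases, which attack the vacuoles of intracellular parasites, were among the genes that fell. Igtp fell from 3823, 5266 and 3792 to 1328, 2594 and 1613 (-1.26 ± 0.23, adjusted p = 0.00054), Irgm1 from 6980.1, 7765 and 7464 to 2679, 5274 and 3668 (-0.99 ± 0.19) and Iigp1 from 197, 239 and 274 to 65.3, 149.7 and 135 (-1.09 ± 0.29, adjusted p = 0.0095, 0.068 without replicate 1 of fraction plus LPS). Ifit1, an antiviral RNA-binding protein, was at -0.97 ± 0.23, Eif2ak2, the kinase PKR, at -0.76 ± 0.12 and Herc6, a ubiquitin ligase, at -0.87 ± 0.20. In all 6 of these genes replicate 2 was the highest fraction array. Without that array 22 members were called lower, and without replicate 1 of vehicle plus LPS 18 were. Other interferon-induced GTPases of the list were not called in the main fit. They were Gbp2 (-0.37 ± 0.76), Gbp3 (-0.38 ± 0.42), Gbp6 (0.46 ± 0.48), Mx1 (-0.46 ± 0.36), Mx2 (-0.36 ± 0.26) and Ifi47 (-0.35 ± 0.25).

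Of 28 NRF2 targets, genes of the oxidative stress response, 9 rose and 1 fell, beside 11.1% and 12.7% of all genes. Hmox1, heme oxygenase 1, gave 713, 1049 and 780.0 with vehicle and 2585, 3189.8 and 2657 with the fraction, 3.35-fold higher (1.74 ± 0.14, adjusted p = 5.6e-08), with no overlap. Sqstm1, the autophagy receptor p62, went from 11579, 14776 and 13487 to 28658, 24454 and 29079 (1.05 ± 0.10) and Gclc, the rate-limiting enzyme of glutathione synthesis, was at 0.81 ± 0.16. Slc7a11, also of the ATF4 and CHOP list, was among the 9. The member that fell was Keap1, the inhibitor of NRF2, at -0.64 ± 0.13. The other 18 members were not called. Among these were Srxn1 (0.11 ± 0.20), Gclm (0.16 ± 0.14), Txn1 (0.13 ± 0.079) and Gsr (-0.08 ± 0.10).

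Lcn2, a siderophore-binding protein that withholds iron from bacteria, stood at 327, 1676 and 1564 with vehicle and 9056, 7237 and 6624 with the fraction (2.99 ± 0.45, adjusted p = 7.9e-05). Without replicate 1 of vehicle plus LPS it was at 2.23 (adjusted p = 7.2e-05). The iron exporter Slc40a1 (ferroportin) lay under the array medians with vehicle (21.5, 43.3 and 44.1) and was at least 3.87-fold higher with the fraction (109, 357 and 332, adjusted p = 0.00021). Its lowest fraction array, replicate 1, still lay above every vehicle array. With Hmox1 these were the 3 of 18 iron genes that rose, and 1 fell, near the shares of all genes.

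Genes of cell division were lower. Of 33 mitosis and spindle genes 19 fell and 0 rose, with a median of -0.49. The falls that were called lay between -0.26 and -0.86. Plk1, a kinase that drives mitotic entry, went from 1849.9, 1341 and 1430.0 to 911, 800.3 and 808 (-0.86 ± 0.12, adjusted p = 3.8e-05). Cenpa, the centromeric histone, was at -0.86 ± 0.085, the kinesins Kif20a and Kif22 at -0.83 ± 0.19 and -0.80 ± 0.12, the spindle kinase Aurka at -0.78 ± 0.12 and cyclin A2 (Ccna2) at -0.70 ± 0.14. With only the 6 compared arrays fitted 12 were called, without replicate 2 of fraction plus LPS 13, and without replicate 1 of vehicle plus LPS also 13.

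Of 43 genes of DNA replication and G1/S 23 fell and 5 rose, with a median of -0.37. Ung, a uracil DNA glycosylase, went from 285, 172 and 192 to 41.2, 74.3 and 44.7, at least 3.47-fold lower (adjusted p = 2.3e-06), where the fraction group lay under the array medians. Cdc6, which loads the replicative helicase, was at -0.88 ± 0.17, the thymidine kinase Tk1 at -0.67 ± 0.17 (-0.41 without replicate 1 of vehicle plus LPS, and adjusted p = 0.055 with only the compared arrays), the ribonucleotide reductase subunit Rrm2 at -0.67 ± 0.14, and the helicase subunit Mcm7 at -0.48 ± 0.097. Cyclin D2 (Ccnd2) went the other way, from 169, 145 and 124 to 325, 434 and 337 (1.32 ± 0.21, adjusted p = 0.00012). Without replicate 1 of vehicle plus LPS 14 of these genes fell, and with only the compared arrays 13. Of 30 ribosome biogenesis and Myc genes 11 fell and 0 rose, beside 12.7% and 11.1% of all genes. After median centring the counts were 5 and 0, beside 894 and 867 of all 11547 genes. The largest falls were those of the nucleoside diphosphate kinase Nme1 (13334, 12214 and 15703 against 3095, 2849 and 2938, -2.21 ± 0.24) and the Myc antagonist Mxd1 (-2.01 ± 0.46). Of the 2 kept probe sets of Nme1, 1 was called, and it is of a kind open to related transcripts.

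Among growth arrest, apoptosis and p53 genes 11 of 31 rose and 3 fell, beside 11.1% and 12.7% of all genes. The share that fell was near that of all genes. Beside Gadd45a and Sesn2, the death-promoting Bcl2 relatives Bcl2l11 (BIM) and Bbc3 (PUMA) rose, BIM from 1027, 1294 and 1081 to 2730.0, 3004 and 3655 (1.46 ± 0.14, adjusted p = 5.3e-07) and PUMA at 1.096 ± 0.18. Bcl2, which opposes them, was at 1.09 ± 0.18. The quiescence factors Klf2 and Klf4 were at 1.37 ± 0.26 and 0.81 ± 0.20. Gadd45g fell from 213, 194 and 177 to 73.1, 101 and 42.3 (-1.52 ± 0.25), opposite to its relative Gadd45a, and the sestrin Sesn1 was at -1.004 ± 0.18, opposite to Sesn2.

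Of 28 macrophage identity genes 5 rose and 4 fell, near the 11.1% and 12.7% of all genes, and the values that follow are of single receptors and lineage genes. Fcgr2b, the inhibitory Fc receptor, rose from 468, 1287 and 938 to 3338, 3069 and 3368 (1.98 ± 0.23, adjusted p = 4.4e-06), and all 4 of its probe sets were called higher. Fcgr3, an activating Fc receptor, was at least 1.45-fold lower, from 74.1, 90.5 and 103 to 30.5, 36.4 and 27.6 (adjusted p = 0.0023), where the fraction arrays again lay under the array medians. The probe set of Fcgr2b can bind related transcripts. Cd69, an early activation antigen, rose from 399, 386 and 442 to 1747, 1909.9 and 2019 (2.21 ± 0.37), and the costimulatory ligand Icosl and the integrin Itgal were at 1.42 ± 0.25 and 1.13 ± 0.11. Csf2rb, the beta chain of the receptor for the Csf2 product, fell (-0.84 ± 0.14), as did the myeloid transcription factor Cebpa (-0.69 ± 0.12). Itgam was at -0.58 ± 0.16 (adjusted p = 0.013, 0.095 without replicate 2 of vehicle plus LPS). The lineage factor Spi1 stood at 0.02 ± 0.093 (adjusted p = 0.91).

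**Figure D4:**
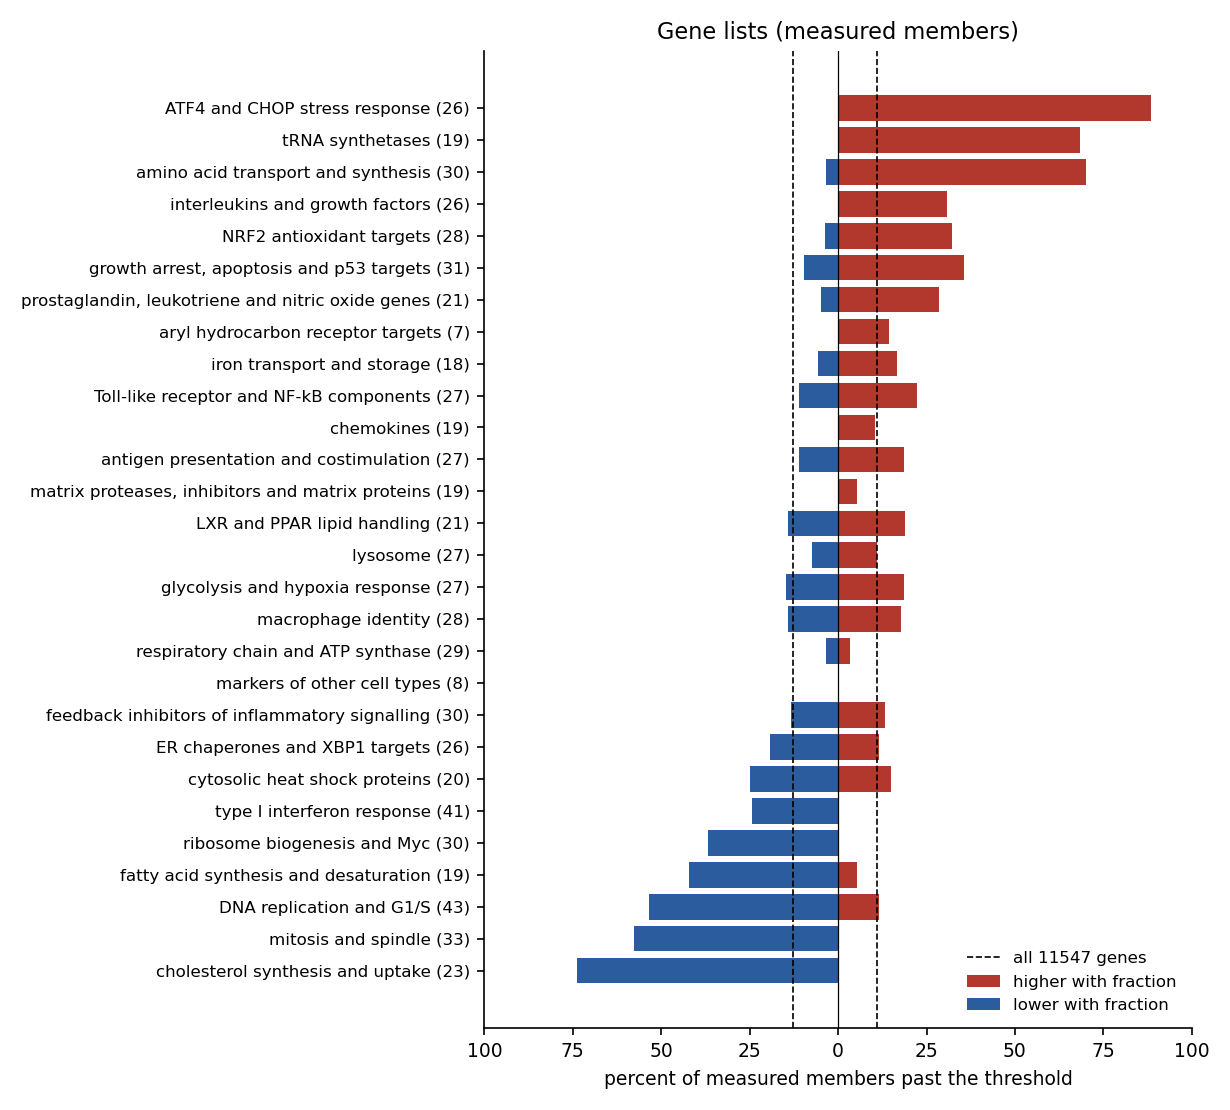
Bars show the percent of measured members (number in parentheses) called higher (right, red) or lower (left, blue) with fraction plus LPS against vehicle plus LPS, and dashed lines mark 11.1% and 12.7%, the shares over all 11547 genes. The ATF4 and CHOP, tRNA synthetase and amino acid lists reach farthest to the right, and cholesterol synthesis, mitosis and DNA replication farthest to the left.

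Counts of the lists not yet described can be read against 11.1% and 12.7% of all genes. In the respiratory chain 1 of 29 rose and 1 fell, in the lysosome 3 of 27 and 2, and in antigen presentation and costimulation 5 of 27 and 3. For glycolysis and the hypoxia response 5 of 27 rose and 4 fell. Vegfa and Ndrg1, which are also in the ATF4 and CHOP list, were among the 5. The glycolytic activator Pfkfb3 fell from 365, 1439 and 1247 to 225, 349 and 187 (-1.83 ± 0.39, adjusted p = 0.0019), and was at -2.45 without replicate 1 of vehicle plus LPS. In the matrix list 1 of 19 rose, the gelatinase gene Mmp9, from 241, 486 and 476 to 1573, 989 and 1006 (1.60 ± 0.30), and among aryl hydrocarbon receptor targets 1 of 7 rose.

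Large changes also lay outside the groups above. Aqp9, a channel for water and glycerol, gave 84.1, 98.4 and 107 with vehicle and 1032, 1255 and 1007 with the fraction, 11.4-fold higher (3.51 ± 0.31, adjusted p = 1.2e-07). Cox6a2, a muscle isoform of a respiratory subunit, and Angptl6, a secreted factor, rose 7.34-fold and 6.87-fold. Tmem154, a membrane protein, was at least 6.54-fold higher, and the stress kinase gene Map3k5 (ASK1) 5.49-fold higher (2.46 ± 0.15). Downward, the serotonin receptor gene Htr1b went from 257, 397 and 428 to 53.7, 72.2 and 90.3 (-2.32 ± 0.29), Pmepa1, a TGF-beta target, from 1003, 645 and 734 to 191, 273 and 91.4 (-2.21 ± 0.40) and Nfatc1, the calcium-dependent transcription factor of osteoclasts, from 2502, 1750.1 and 1241 to 463, 418 and 356 (-2.10 ± 0.21). The TGF-beta-induced repressor Klf10 was at -1.65 ± 0.14. Of the 20 genes without overlap that had the largest rises 12, and of the 20 with the largest falls 14, lay under the array median in at least 1 group.

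Genes that LPS moves were identified in the mixture-treated cells, whose arrays belong to neither of the compared groups. LPS raised 340 genes at least 2-fold there and lowered 287. With fraction plus LPS 65 of the 340 (19.1%) were called higher than with vehicle plus LPS and 34 (10.0%) lower, with a median difference of 0.11. Of the 287 lowered genes 31 (10.8%) were higher and 64 (22.3%) lower, with a median of -0.14. Over all genes the shares were 11.1% and 12.7%.

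Without LPS the fraction changed 15.9% of genes upward and 15.3% downward. Of the 1281 genes higher with LPS 923 were also higher without and 13 were lower, and of the 1465 lower 943 were also lower and 10 higher. The difference between the effects (interaction) was called for 247 genes, 103 (0.892%) with a higher and 144 (1.25%) with a lower effect in LPS. In 187 of the 247 the effect was smaller in size with LPS. Without replicate 2 of vehicle plus LPS the counts were 60 and 63, without replicate 2 of the fraction alone 65 and 59, and without replicate 3 of vehicle alone 54 and 71. Ddit3 rose 2.32 with and 4.42 without LPS (interaction -2.10 ± 0.32, adjusted p = 0.0016), Trib3 3.29 and 4.73 (-1.44 ± 0.23), and Klf4 0.81 and 3.62 (-2.80 ± 0.28, adjusted p = 2.5e-05). Hspa1b fell with LPS (-0.92) by less than without (-3.91, interaction 2.99 ± 0.24), and so did Ifit1 (-0.97 and -2.55, 1.58 ± 0.32). Cxcl10 fell without LPS (-2.79) and stood at -0.45 with it, not called (2.35 ± 0.26).

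Other genes responded more, or oppositely, in LPS. Lif stood at -0.56 without LPS (adjusted p = 0.057) and rose 1.22 with it (interaction 1.78 ± 0.31, adjusted p = 0.0040), but its fraction group without LPS lay under the array medians, so the size of that difference is uncertain. Ptger4 fell by 0.62 without LPS and fell by 2.22 with it (-1.60 ± 0.19, adjusted p = 0.00015), and Nme1 stood at -0.75 and -2.21 (-1.46 ± 0.34). Gadd45g fell with LPS (-1.52) and was at 0.05 without (-1.57 ± 0.35). The NF-kB adaptor Tifa was at least 2.69-fold lower with LPS, where its fraction arrays lay mostly under the array medians, and at 0.83 without. In the interferon list 31 members fell without LPS and 10 with it, and the interaction was called for 6, all of them nearer to 0 in LPS. For the cholesterol list the counts were 17 and 17, and the interaction was called for Insig1 alone (1.26 ± 0.23). Of the 26 ATF4 and CHOP genes the interaction was called for 7, all with a smaller rise in LPS, and of the 19 tRNA synthetases for 0. Of the 43 DNA replication genes 34 fell without LPS and 23 with it, and the interaction was called for 10, all of them nearer to 0 in LPS, Cdc6 among them (-2.36 without LPS, -0.88 with it). Of the 33 mitosis genes 10 fell without and 19 with LPS, and the interaction was called for 0.

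**Figure D5:**
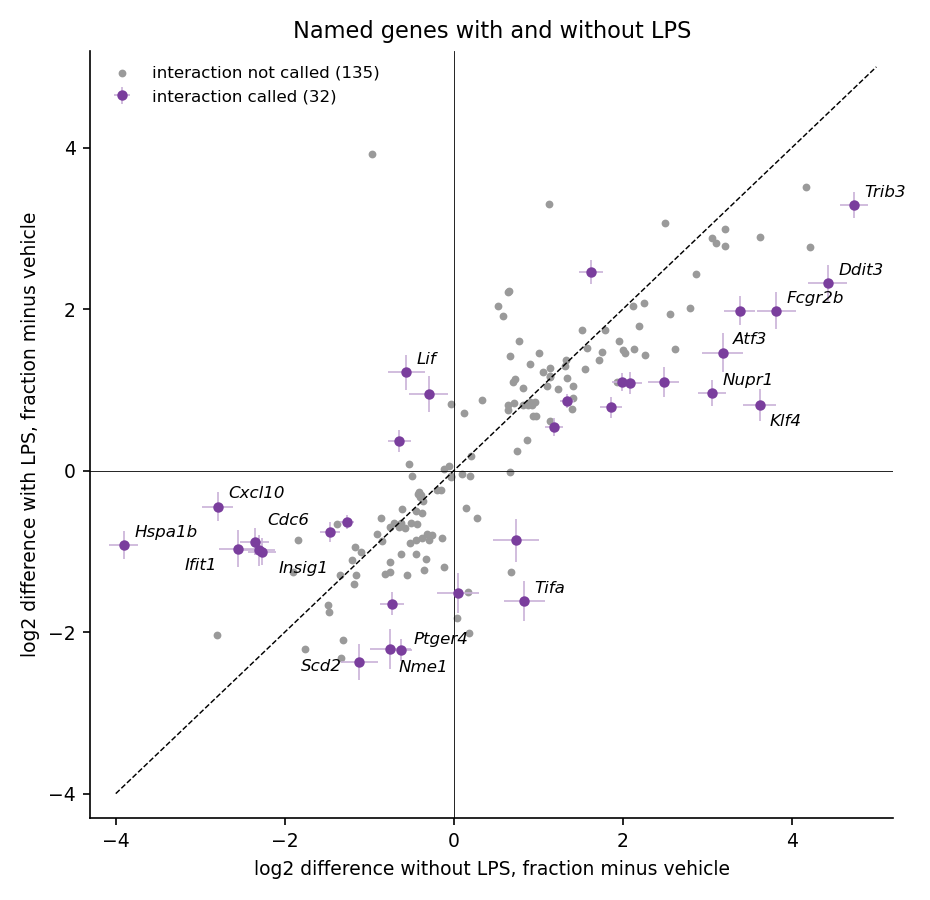
Each point is 1 of the 167 named genes, placed by the log2 difference of fraction minus vehicle without LPS (x axis) and with LPS (y axis). The dashed line marks equal effects. Purple points with bars of 1 standard error had a called interaction and grey points did not. Klf4, Ddit3 and Nupr1 lie under the line on the right, Hspa1b and Cxcl10 above it on the left.

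Against the 4-compound mixture, also with LPS, the fraction gave 12% of genes higher and 16.2% lower. That comparison shares the 3 fraction arrays with the one against vehicle. Between mixture and vehicle with LPS limma called 0 genes (934 at an unadjusted p under 0.05, lowest adjusted p 0.115), which does not show that they act alike. Trib3 stood at 192, 232 and 302 in the mixture arrays and was 3.53 ± 0.16 higher with the fraction. Hmgcs1 stood at 3377, 4107 and 3679 there and Scd2 at 5799, 5795 and 6912, and the differences of fraction minus mixture were -1.44 and -2.42. Il6 stood at 1717, 2546 and 1786 and Lcn2 at 326, 485 and 468, so the fraction was 2.62 ± 0.56 (adjusted p = 0.0016) and 4.17 ± 0.45 higher (adjusted p = 1.3e-06). Ptger4 stood at 1001, 982 and 1089 and was lower with the fraction (-2.18 ± 0.13). For these 6 genes all vehicle and mixture arrays lay on the same side of the fraction arrays.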

How the data were processed

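RNA of RAW 264.7 cells in 6 groups of 3 was hybridised to 1-colour Affymetrix mouse arrays. The deposited intensity values are MAS5 signals per probe set, per the submitters' processing notes; the MAS5 version is not given in the sources used here, and the raw scans and detection calls were not analysed here. Signals were floored at 1 (0.824% of values lay lower) and taken as log2, with no further normalization. Of 45101 probe sets, 64 control probe sets were left out, 34945 had 1 gene symbol in the platform annotation, 932 several and 9160 none. A probe set was kept where it reached its array's median on at least 3 of 18 arrays, and the brightest kept probe set stood for a gene, which gave 11547 genes. Names were updated by Entrez ID through the RefSeq table (34741 matched). Gene names in the platform annotation can be old.

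Group means were fitted in limma 3.58.1 (R 4.3.3) with lmFit and eBayes with a mean trend over all 18 arrays (12 residual degrees of freedom). Every adjusted p is limma's, by the Benjamini-Hochberg method over all genes, with a threshold of 0.05. The fit was tested on simulated data. The number of arrays per group limits the precision. A fold is a ratio of geometric means. Where the dimmer group lay under its arrays' medians, the fold was taken against those medians and given as "at least"; this treatment was chosen after the data were seen.

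The groups, the 28 gene lists and the named genes were chosen with earlier results of these data known. Named genes were the 20 largest rises and falls without overlap between groups, up to 6 called members of each list, the 6 largest differences each way of the interaction and against the mixture, and 7 inflammation genes. Another 55 genes, pathway members and uncalled genes among them, were named after their values were seen. Some further uncalled members of the NRF2 and interferon lists are quoted with their values. They are not counted among the 167 named genes. Alternatives were a replicate block, quantile normalization, median centring, a pseudocount of 32, no filter, a 75th percentile filter, every probe set, no trend, the compared arrays alone, and each array left out. Leaving out all 6 arrays numbered 1 was added after the data were seen. Promoter windows were read from RefSeq sequences. The lists cover the pathways named with their counts in the text.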

Additional observations from a re-analysis of the deposited data

Results flagged for a closer look

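For 32 of the named genes limma's interaction term was past the threshold in the main fit. These single calls were not followed through the alternatives. Over all genes the interaction counts went from 103 higher and 144 lower to 58 and 28 after median centring. Some of the 32 lay near the threshold, such as Atf4 and Fabp4 (adjusted p = 0.047 for both). In each of the following values the difference is the log2 effect with LPS minus the log2 effect without it.

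Stress and signalling genes that rose less with LPS were led by Klf4 (-2.80), Ddit3 (-2.10), Nupr1 (-2.10), Fcgr2b (-1.84) and Atf3 (-1.72). Klf4 rose 3.62 without LPS and 0.813 with it. Trib3 (-1.44), Slc1a4 (-1.40), Ppp1r15a (-1.39), Gch1 (-1.08), Ern1 (-1.01), Slc7a11 (-0.887), Tlr4 (-0.643) and Atf4 (-0.474) followed in the same direction.

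Genes that fell further with LPS were Ptger4 (-1.60), Nme1 (-1.46), Scd2 (-1.26) and Klf10 (-0.914). Tifa was called higher without LPS and lower with it, but its mean signal with fraction plus LPS lay under the array medians, so the fitted difference (-2.45) does not measure a size. Abca1 (-1.60) and Gadd45g (-1.57) fell with LPS and stood at 0.732 and 0.0495 without it.

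Genes that fell less with LPS were Hspa1b (2.99), Ifit1 (1.58), Cdc6 (1.48), Irgm1 (1.32), Insig1 (1.26), Eif2ak2 (0.707) and Fasn (0.622), as well as Cxcl10 (2.35), which was not called with LPS. Lif (1.78), Fabp4 (1.24) and Tnf (1.01) stood below 0 without LPS and above it with LPS, Tnf not called with it and Lif too dim without LPS to give a size. Map3k5 (0.835) rose in both states, more with LPS.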

How the results depend on the processing

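Of 150 named genes that were called, 134 kept the call in each of 15 alternatives that tested them, and 16 lost it in at least 1: Il6, Abca1, Dusp1, Socs3, Iigp1, Ccl20, Cxcl3, Angptl4, Ptgir, Tlr4, Itgam, Tk1, Slc7a6, Creld2, Manf and Dnajb11. The 75th percentile filter removed some of the 167 named genes, which could not lose a call there. Of those it kept, 151 were unchanged and 1 gained the call. None of the 167 named genes changed direction while called in these alternatives. Of the 17 that were not called, Cebpb, Hspa5, Fdps, Cxcl10, Tnf and Csf1r passed the threshold in at least 1. After median centring 867 genes were higher with fraction plus LPS and 894 lower. Fitted over every probe set, 2139 were higher and 2010 lower, which counts probe sets of 45037 and not genes. All other counts are of genes. With each array left out in turn the counts lay from 1003 to 1225 and from 1084 to 1355. Against mixture plus LPS 840 genes were higher after centring, and 2486 probe sets were higher when every probe set was fitted. The interaction counts moved most: 58 higher and 28 lower after centring, which turned the split, 60 and 65 with no trend, 55 and 86 with only the compared arrays, and with an array left out from 54 to 145 and from 59 to 199, the lowest without replicate 3 of vehicle and replicate 2 of the fraction. The causes were not tested. Deviations from the group mean of same-numbered arrays of the compared groups correlated at 0.114, 0.0855 and 0.0480. Over the 45 same-numbered pairs of the 6 groups these correlations lay from 0.0181 to 0.170, small but all positive. The labels do not say that the numbers pair arrays, so the main fit had no block. With a replicate block, 1574 genes were higher and 1763 lower, the interaction was called for 198 and 269, and 23 interferon genes fell. Each fraction array correlated best with its own number, as did vehicle arrays 1 and 2 but not 3, a hint from the data only. A dim signal limits what can be said of genes near the array median.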
